A study of Homo sapiens with 6 samples.

Results

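The genes described here are ZFP36, ZFP36L1, ZFP36L2, HNRNPD, KHSRP, TIA1 and TIAL1, 7 of the 20162 protein-coding genes of GENCODE, all of which encode proteins that bind AU-rich elements in mRNA. They were chosen by name and not by a cutoff on a measured value, but with earlier results of these data known. Sites of each library were assigned to them when the site lay on the gene's strand with its midpoint inside the gene. In total, 2809 sites were found: 272 in G20, 81 in G35, 103 in G45, 623 in HuR replicate 1, 942 in HuR replicate 2 and 788 in Total. The data are PAR-CLIP libraries from HEK293, a human cell line derived from embryonic kidney. In PAR-CLIP, cells take up 4SU, a uridine analog that forms a bond with a contacting protein under long-wave UV, the RNA is trimmed with RNase T1, and crosslinked uridines appear as T-to-C changes in the sequenced reads. All 6 libraries came from such 4SU-labelled, crosslinked, RNase T1-treated lysates. The 2 HuR libraries are replicates of a FLAG M2 immunoprecipitation of HuR, expressed from a stable doxycycline-inducible construct, so that the protein was not at its native level. The 3 background libraries are gel slices at about 20, 35 and 45 kDa (G20, G35 and G45) of the same immunoprecipitation from cells expressing GFP, which is not known to bind RNA. Total is a single library made without immunoprecipitation, with proteinase K digestion and depletion of ribosomal RNA by RiboZero. The labels do not tie the HuR replicates to separate cultures, and the slices are different gel sizes and not replicates of each other. P-values thus measure only the spread between these samples, which includes the differences between gel sizes and may otherwise be technical. HuR is thus compared with slices of a single control, and Total shows what the crosslinked, digested lysate held.

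HuR, the product of ELAVL1, binds U-rich and AU-rich sequences, mostly in 3'UTRs and introns, and is known for stabilizing mRNAs. ZFP36 and its relatives ZFP36L1 and ZFP36L2 are zinc finger proteins that bind UAUUUAU-like elements and recruit the CCR4-NOT deadenylase, which shortens the poly(A) tail and leads to decay. HNRNPD (AUF1) and KHSRP (KSRP) bind AU-rich mRNAs and are linked to their turnover, and TIA1 and TIAL1 (TIAR) bind U-rich RNA, repress translation, enter stress granules and also act in splicing. These proteins share or compete for targets with HuR, and several of their own mRNAs carry AU-rich elements. On GRCh37, ZFP36 spans chr19:39897487-39900052 on the plus strand. The other 6 lie on the minus strand, ZFP36L1 at chr14:69254377-69262970, ZFP36L2 at chr2:43449541-43453745, HNRNPD at chr4:83273651-83295656, KHSRP at chr19:6413113-6424822, TIA1 at chr2:70436576-70475792 and TIAL1 at chr10:121331314-121356541. The ZFP36 family genes are short, from 2.57 kb (ZFP36) to 8.59 kb (ZFP36L1), and the others run from 11.7 kb (KHSRP) to 39.2 kb (TIA1), so that intron reads had far more room in TIA1, TIAL1 and HNRNPD.

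The 3'UTR site with the most HuR reads in each gene is shown first, because these sites carry most of what follows. A site here is a stretch covered by HuR sites that overlap each other, ranked by the mean of the 2 HuR libraries scaled to each library's reads in protein-coding genes. At most 30 bases are printed around the most crosslinked position of a site, from GRCh37 (the same build as hg19), 5′ to 3′ on the gene's strand, with every ATTTA and TTTTT in capitals and uridine written as T.
ZFP36, chr19:39899843-39899862, plus strand: actttATTTAttctaatatg
ZFP36L1, chr14:69254899-69254921, minus strand: ttttaatatattattcttcaacg
ZFP36L2, chr2:43451233-43451262, minus strand: tcttgtcTTTTTTTTTTTaTTTTTattacg
HNRNPD, chr4:83275177-83275206, minus strand: tggaagtatgacgttgggtccctctgaagt
KHSRP, chr19:6413703-6413732, minus strand: ctctgaggataaagcaattcattttctccc
TIA1, chr2:70439270-70439295, minus strand: tatctacatcTTTTTTcacaaatttg
TIAL1, chr10:121333271-121333300, minus strand: ttataaaatatacccttatttcttttgttt
The printed bases of ZFP36 hold an AU-rich pentamer, those of ZFP36L2 and TIA1 hold runs of T, and those of the other 4 hold neither pattern. The sites of ZFP36L2, HNRNPD, KHSRP and TIAL1 are longer than the bases printed. Sites with TTTTT held 94.2% of the KHSRP 3'UTR reads in HuR replicate 2, and the top site 24.6%. They held 50.3% of the HNRNPD 3'UTR reads in HuR replicate 1, where the largest site held 45%. Both values are reached only with the top site, which thus holds TTTTT outside the printed bases in these 2 genes. All 7 top sites lie in the last exon of the canonical transcript. Positions given below as nt after the stop codon count from the end of the annotated coding sequence. That annotation leaves out the stop codon, so the counts include its bases.

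The nonamer TTATTTATT, a known binding element of the ZFP36 proteins, occurs once in each canonical 3'UTR of the ZFP36 family and in no other of the 7. It is shown in capitals within its surroundings, because it is an element that this family is known to bind.
ZFP36, chr19:39899836-39899864, plus strand: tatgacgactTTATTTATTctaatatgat
ZFP36L1, chr14:69254794-69254822, minus strand: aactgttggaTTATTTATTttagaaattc
ZFP36L2, chr2:43450587-43450615, minus strand: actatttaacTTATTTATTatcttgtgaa
In ZFP36, 37 reads of HuR replicate 2 and 0 of every other library lay on the nonamer, which is inside the site printed above. In ZFP36L1, 1 read of HuR replicate 1 and 31 of HuR replicate 2 lay on it, compared to 0 in each slice and in Total. In ZFP36L2, HuR replicate 2 had 10 reads there and HuR replicate 1 had 0, whereas G45 had 4 and Total had 15. The nonamers of ZFP36 and ZFP36L1 were thus seen mainly in the deeper HuR library, and that of ZFP36L2 also outside HuR. The 10 reads of HuR replicate 2 in ZFP36L2 carried 0 conversion events, whereas the 4 reads of G45 carried 4.

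Summed over sites, libraries held from 6187300 (G35) to 38644636 (G20) reads, of which 24.1% (Total) to 68.3% (HuR replicate 2) lay in protein-coding genes, 2382244 reads in G35 and 21943434 in HuR replicate 2. A count of 0 allows up to 3 reads, which is 0.485 RPM (reads scaled to the library's total) in G35 and 0.0934 RPM in HuR replicate 2. Reads had no molecular identifiers, so these limits and the 95% Wilson intervals below cover counting error only. Of 5 marker genes of HEK293, exon reads in Total were 3194 for IGF2BP1, 627 for LIN28B, 619 for INA, 24 for PAX2 and 4 for NEFM. Of 4 genes of other tissues, ALB had 41 exon reads, PTPRC had 3, and CD3E and INS had 0.

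HuR left most of its exonic reads on the 3'UTRs of these genes. Pooled over the 7 genes, the 3'UTR held 94.9% of 3'UTR and coding reads in HuR replicate 1 and 97.1% in replicate 2, compared to 40.2% in G20, 70.2% in G35, 69.7% in G45 and 49.8% in Total. KHSRP weighs heavily in this pool, with 586 of the 680 3'UTR and 619 of the 1013 coding reads of G20. By gene, the share ran from 8.58% (HNRNPD) to 60% (TIA1) in G20. It ran from 33.3% (ZFP36) to 98.6% (ZFP36L1) in HuR replicate 1 and from 84.3% to 99.8% in replicate 2, in the same genes. Introns held 41.6% and 34.9% of all reads of the 7 genes in the HuR replicates, compared to 9.2% in G20, 18.2% in G35, 17.2% in G45 and 18.2% in Total. Coding sequence held 2.73% and 1.8% in HuR and 38.3% in Total. Counted by sites instead of reads, the 3'UTR held a mean of 25.6% and introns 61.4% of the HuR sites, since intron sites were many and small. In a bulk culture, fewer cells of a type and less RNA per cell cannot be told apart. The 3'UTR shift was not particular to these genes: over all genes with 20 or more such reads, the median 3'UTR share of 3'UTR and coding reads was 89.3% and 89.1% in HuR, 25% in G20, 48% in G35, 50.6% in G45 and 44.2% in Total. The median intron share over all genes with 20 or more reads was 86.2% and 85.2% in HuR, 45.6% in G20, 81.8% in G35, 83% in G45 and 46% in Total, above the pooled share of these 7 genes in every library.

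**Figure D1:**
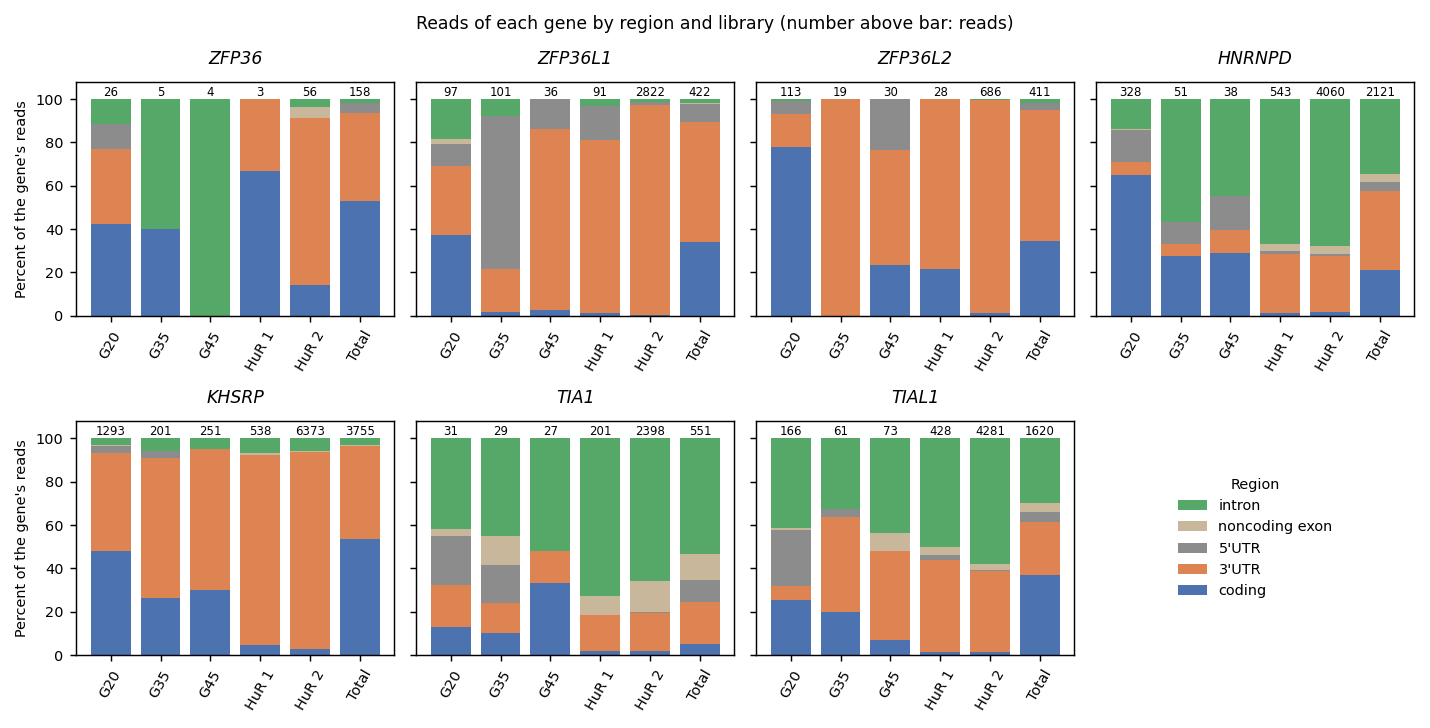
Percent of each gene's reads (y axis) in coding sequence, 3'UTR, 5'UTR, noncoding exons and introns, per library (x axis), with the gene's number of reads above each bar. In both HuR libraries, KHSRP, ZFP36L1 and ZFP36L2 are mostly 3'UTR and HNRNPD and TIA1 mostly intron, and coding sequence is 4.65% or less of the HuR reads of HNRNPD, KHSRP, TIA1 and TIAL1, compared to 12.9% to 64.9% in G20 and 5.26% to 53.8% in Total.

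ZFP36L1 had the most uneven HuR counts of the 7 genes. Its 3'UTR held 31 reads in G20, 20 in G35, 30 in G45, 73 in HuR replicate 1, 2741 in HuR replicate 2 and 234 in Total. The coding sequence held 1 read in HuR replicate 1 and 5 in replicate 2, compared to 36 in G20, 2 in G35, 1 in G45 and 144 in Total. Thus the 3'UTR share of 3'UTR and coding reads was 98.6% and 99.8% in HuR, and 61.9% in Total. The slices gave 46.3%, 90.9% and 96.8%, all below HuR although G45 came close. The site at chr14:69254899-69254921, 1342 nt after the stop codon, alone held 930 of the 2741 reads in HuR replicate 2 and 17 of the 73 in replicate 1, with 22 reads in Total, 5 in G45, 1 in G20 and 0 in G35. Outside the 3'UTR, G35 had a site of 68 reads at chr14:69260553-69260572, in a 5'UTR of a non-canonical transcript, with 0 reads in every other library. This single site made up 95.8% of the 71 5'UTR reads of G35 and 67.3% of its reads in the gene. The gene's span also overlaps a lncRNA on the same strand, whose reads cannot be told apart from those of ZFP36L1.

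ZFP36L2 had fewer reads and a less clear contrast. Its 3'UTR held 17, 19 and 16 reads in G20, G35 and G45, 22 and 675 in HuR replicates 1 and 2, and 250 in Total. In raw reads HuR replicate 1 was thus slightly above the slices. Scaled with TMM over the 6 libraries it lay below them, at 2.87 CPM compared to 4.58, 9.05 and 6.97, and replicate 2 lay above at 13.5 CPM. The coding sequence held 88, 0 and 7 reads in the slices, 6 and 9 in HuR and 141 in Total, which gave 3'UTR shares of 16.2%, 100% and 69.6% in the slices and of 78.6% and 98.7% in HuR. Here the groups overlapped, as G35 had no coding read. The top HuR site, at chr2:43451233-43451267 in the run of T printed above, was also the site with the most background reads of this gene, with 3, 6 and 5 reads in the slices, 6 and 172 in HuR and 5 in Total.

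ZFP36, the founding member and an immediate-early gene, was barely covered. Summed over all regions, it had 26, 5 and 4 reads in G20, G35 and G45, 3 and 56 in HuR, and 158 in Total. Of the 43 3'UTR reads in HuR replicate 2, 37 came from the site at the nonamer, 507 nt after the stop codon, which had no read elsewhere. HuR replicate 1 had 1 3'UTR read, so that its 3'UTR share of 33.3% (Wilson interval 6.15% to 79.2%) could not be set apart from any other library. Total had 64 3'UTR and 84 coding reads in ZFP36, and no read at the site found by HuR.

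HNRNPD showed the widest gap between HuR and background in the 3'UTR. Its 3'UTR held 20, 3 and 4 reads in G20, G35 and G45, 149 and 1053 in HuR replicates 1 and 2, and 773 in Total. By contrast, the coding sequence held 213, 14 and 11 reads in the slices, and only 6 and 68 in HuR, with 445 in Total. The 3'UTR share of 3'UTR and coding reads was 8.58% (interval 5.63% to 12.9%), 17.6% (6.19% to 41%) and 26.7% (10.9% to 52%) in the slices and 96.1% (91.8% to 98.2%) and 93.9% (92.4% to 95.2%) in HuR. The intervals of the slices and of HuR did not meet, and Total lay between them at 63.5%. Most HNRNPD reads of HuR were intronic, 363 and 2746 compared to 45, 29 and 17 in the slices and 735 in Total, or 66.9% and 67.6% of the gene's reads in HuR against 13.7%, 56.9% and 44.7% in the slices.

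The top 3'UTR site of HNRNPD, chr4:83275153-83275242, lay 149 nt after the stop codon in exon 9 of 9 and held 68 and 178 reads in HuR, 6 in G20, 0 in G35 and G45, and 5 in Total. The next, chr4:83276474-83276502, spanned the end of the coding sequence in exon 8 and was counted as 3'UTR by its midpoint. In HuR it covered nt 1 to 16 of the 3'UTR, with its most crosslinked position at about nt 7, both counted with the stop codon included. It had the reverse balance to Total, with 19 and 103 reads in HuR, 521 in Total and 0 in each slice. Its 521 reads were 67.4% of the HNRNPD 3'UTR reads of Total, so that the 63.5% given above for Total depends on this site. So the same 3'UTR held a site seen mainly with HuR and a site with most reads in the lysate. The top intron site, chr4:83290439-83290476 in intron 2, was seen in HuR with 25 and 118 reads and in Total with 22, and not in the slices. Its sequence is shown because it pairs an AU-rich pentamer, in capitals, with a stretch of T and C:
HNRNPD, chr4:83290447-83290476, minus strand: agttcactttgATTTActctttcccacatt
The site with the most background reads, chr4:83294574-83294828 in coding sequence of exon 1, was mainly a site of G20, with 166 reads there, 1 in G35, 5 in G45, 1 and 12 in HuR and 16 in Total. In G20 those reads carried 6.02 conversion events per 100 reads. They were 77.9% of the HNRNPD coding reads of G20, so that the 3'UTR share of 8.58% given above for G20 depends on this site. The 30 bases at the middle of the largest site there are printed for contrast, since they are G-rich and contain no T:
HNRNPD, chr4:83294686-83294715, minus strand: ggcggcgggaagcggagccgggaccggggg

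KHSRP had the most reads of the 7 genes in each slice, in Total and in HuR replicate 2. Its 3'UTR held 586, 130 and 164 reads in G20, G35 and G45, 472 and 5797 in HuR, and 1608 in Total. HuR replicate 1 thus had fewer KHSRP 3'UTR reads than G20. Coding reads were 619, 53 and 75 in the slices, 25 and 182 in HuR and 2019 in Total. The 3'UTR share of 3'UTR and coding reads was 48.6%, 71% and 68.6% in the slices, compared to 95% and 97% in HuR and 44.3% in Total. Even with many reads in the slices, the balance between 3'UTR and coding reads separated the groups.

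Background covered much more of the KHSRP 3'UTR than of the others. Sites of any slice covered 73.9% of its canonical 3'UTR, compared to 2.3% (TIA1) to 22.4% (ZFP36L1) in the other 6 genes. The top HuR site, chr19:6413662-6413812, lay 1320 nt after the stop codon and held 228 and 1424 reads in HuR, 16, 12 and 6 in the slices and 578 in Total. The next by the same ranking, chr19:6413924-6414092, was the largest site of HuR replicate 2. It held 62 and 1676 reads in HuR, 137, 33 and 21 in the slices and 55 in Total. The site with the most background reads, chr19:6414761-6415043, lay closer to the stop codon and held 258, 23 and 15 reads in the slices, 10 and 1446 in HuR and 159 in Total. The counts of HuR there depend on where sites end. The 1446 reads include a site of 1352 reads of HuR replicate 2, from 248 to 350 nt after the stop codon, that shares only its first bases with the G20 site (1 to 277 nt), whereas the matching site of HuR replicate 1, with 83 reads from 278 to 350 nt, begins just outside and was not counted. The span of KHSRP also contains MIR3940 on the same strand.

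TIA1 reads of HuR were mostly intronic. Introns held 13, 13 and 14 reads in G20, G35 and G45, 146 and 1583 in HuR, and 294 in Total. They made up 72.6% and 66% of the gene's reads in HuR, compared to 41.9%, 44.8% and 51.9% in the slices and 53.4% in Total, and introns make up most of this gene's length. The 3'UTR held 6, 4 and 4 reads in the slices, 33 and 423 in HuR and 106 in Total. Coding sequence held 4, 3 and 9 reads in the slices, 4 and 44 in HuR and 29 in Total, so that the 3'UTR share was 60%, 57.1% and 30.8% in the slices and 89.2% and 90.6% in HuR, with 78.5% in Total. These shares rest on at most 13 reads in a slice. The top 3'UTR site, chr2:70439270-70439295, 575 nt after the stop codon, was almost only in HuR replicate 2, with 100 reads there, 1 in replicate 1, 1 in G20, 0 in G35 and G45, and 11 in Total. A transcript of C2orf42 reads through the TIA1 span on the same strand, so intron reads of TIA1 cannot be told apart from intron reads of that transcript.

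TIAL1, the close relative of TIA1, was covered more deeply in both exons and introns. Its 3'UTR held 11, 27 and 30 reads in the slices, 182 and 1598 in HuR and 395 in Total. Its coding sequence held 42, 12 and 5 reads in the slices, 6 and 56 in HuR, and 602 in Total. The resulting 3'UTR shares of 20.8%, 69.2% and 85.7% in the slices were all below the 96.8% and 96.6% of HuR, and Total stood at 39.6%. Intron reads were 69, 20 and 32 in the slices, 215 and 2483 in HuR and 482 in Total. The top 3'UTR site, chr10:121333193-121333300, was spread over the distal 3'UTR and held only 12 and 178 reads in HuR, 9 in G45, 0 in G20 and G35, and 12 in Total. The top intron site, chr10:121353430-121353490 in intron 1, held 4 and 182 reads in HuR, 1 in G20, 0 in G35 and G45, and 25 in Total. TIAL1 reads were therefore spread over many sites, with 57 and 59 3'UTR sites in the HuR replicates.

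**Figure D2:**
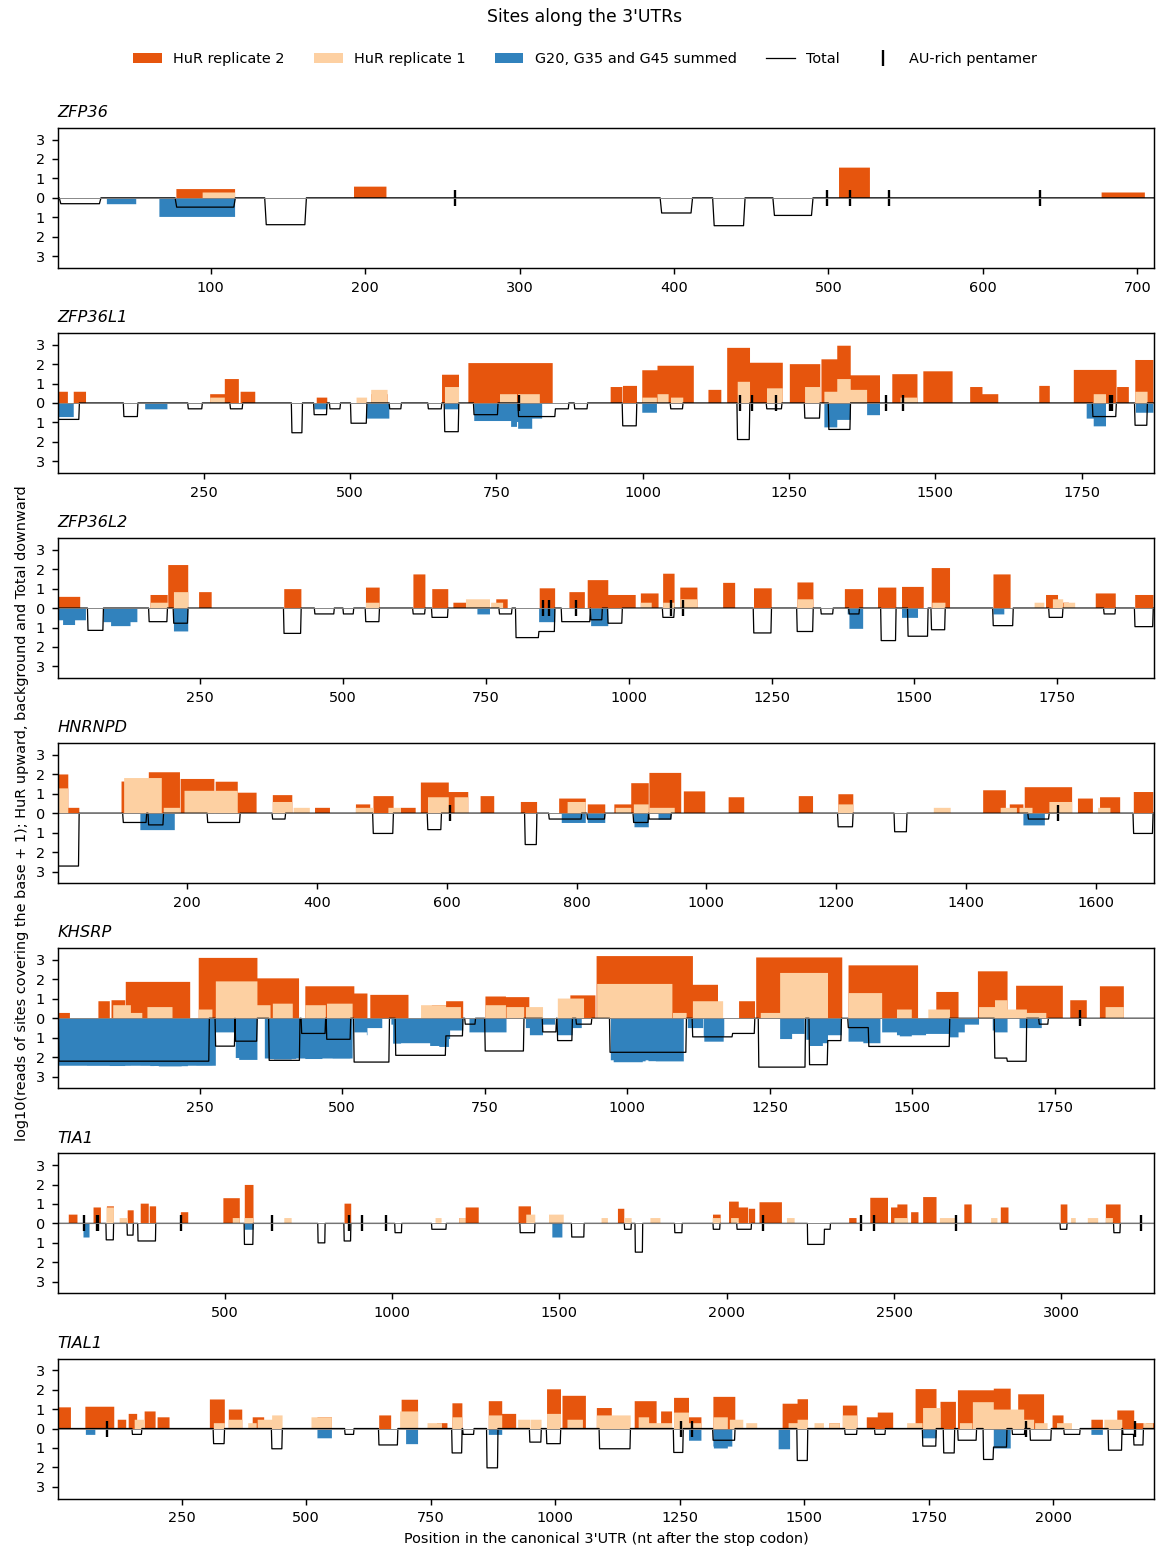
Sites along each canonical 3'UTR, from the stop codon (left) to its end; the x axis is nt after the stop codon and the y axis log10 of the reads of the sites covering a base plus 1, with HuR upward (replicate 1 drawn over replicate 2) and the summed slices and Total downward, and vertical ticks at ATTTA. Background covers most of KHSRP (73.9%) and little of TIA1 (2.3%), and the tallest HuR site of ZFP36 sits at a pentamer with no background or Total below it.

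HuR was then compared with background across all protein-coding genes, with edgeR's quasi-likelihood test on reads per gene, TMM normalization and Benjamini-Hochberg adjustment at 0.05. The SE given with edgeR values was derived from the test, as the absolute log2 fold change divided by the square root of its F statistic. In 3'UTR reads, 6 of the 7 genes passed the filter on low counts, and 0 passed the test. The log2 fold change (HuR over background, ± SE) was 2.38 ± 0.76 for HNRNPD, 1.4 ± 0.85 for TIA1, 1.15 ± 0.72 for TIAL1, 1.02 ± 0.69 for ZFP36L1, -0.3 ± 0.74 for ZFP36L2 and -0.62 ± 0.77 for KHSRP. HNRNPD had the lowest adjusted p of edgeR, 0.166, and an unadjusted p of 0.013. Of all 4769 genes tested, 0 passed (0%), although 920 had an unadjusted p under 0.05, so that the lack of calls was general in this comparison of 2 libraries with 3 slices. The median of the 6 genes was 1.09, beside 0.17 over all genes tested.

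The other regions gave the same count of calls. In intron reads, 4 of the 7 genes were tested and 0 passed in edgeR, against 437 of 12346 genes (3.54%) in either direction. TIA1 stood at 1.88 ± 0.62 (edgeR adjusted p = 0.1), HNRNPD at 1.69 ± 0.58 (0.109), TIAL1 at 0.93 ± 0.63 (0.359) and KHSRP at -0.83 ± 0.8 (0.516), all as log2 fold changes with adjusted p. TIA1 and HNRNPD passed DESeq2's Wald test, in which 588 of 12717 genes (4.62%) were called higher in HuR. In whole-gene reads, edgeR called 0 of 6 genes tested, against 336 of 14394 (2.33%), with log2 fold changes of 1.85 ± 0.69 for TIA1, 1.12 ± 0.63 for TIAL1, 0.9 ± 0.72 for HNRNPD, 0.37 ± 0.76 for ZFP36L1, -0.78 ± 0.79 for KHSRP and -0.84 ± 0.84 for ZFP36L2. In coding reads, edgeR called 0 of 5, against 2 of 5537 (0.0361%), and values ranged from -0.7 ± 1.03 for KHSRP to 1.46 ± 1.15 for TIA1, with -0.54 ± 1.27 for ZFP36L2, -0.42 ± 0.89 for HNRNPD and 0.8 ± 0.87 for TIAL1. At an unadjusted p under 0.05, edgeR gave 1 of the genes in whole-gene reads (TIA1), 1 in 3'UTR reads (HNRNPD), 2 in intron reads (TIA1 and HNRNPD) and 0 in coding reads. Over all genes tested, 26.2%, 19.3%, 26.2% and 12.7% had such a p in whole-gene, 3'UTR, intron and coding reads, respectively. DESeq2 called 0 in whole-gene, 3'UTR and coding reads.

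The change of 3'UTR reads relative to coding reads was tested with each library as its own control. The log2 difference was above the median of all genes (-0.09) in each of the 6 genes tested, at 3.49 ± 1.48 for HNRNPD, 2.54 ± 1.76 for ZFP36L1, 1.12 ± 1.46 for TIAL1, 0.7 ± 1.6 for KHSRP, 0.21 ± 1.81 for ZFP36L2 and 0.07 ± 1.97 for TIA1. Under edgeR 0 of the 6 passed, as did 0 of 8180 genes (0%), and HNRNPD had an adjusted p of 0.674 and an unadjusted p of 0.0186, which was under 0.05 in 6.04% of all genes. TMM centres the typical gene near 0 here, so that these values are relative to a general shift from coding towards 3'UTR reads, with a median of 3.07 when reads were scaled to the library's total instead.

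With that scaling, edgeR called HNRNPD, TIA1, TIAL1 and ZFP36L1 higher in 3'UTR reads, HNRNPD, TIA1 and TIAL1 higher in whole-gene and intron reads, and HNRNPD higher in 3'UTR relative to coding reads. All genes moved with them: the median log2 fold change of all genes became 3.05 in 3'UTR, 2.15 in whole-gene and 2.77 in intron reads, and the share of genes called higher was 40.2%, 39.5% and 40.3%, and 2.24% for 3'UTR relative to coding reads. HNRNPD then stood at 5.55 in 3'UTR reads, above that median, and KHSRP at 2.58 and ZFP36L2 at 2.67 below it.

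**Figure D3:**
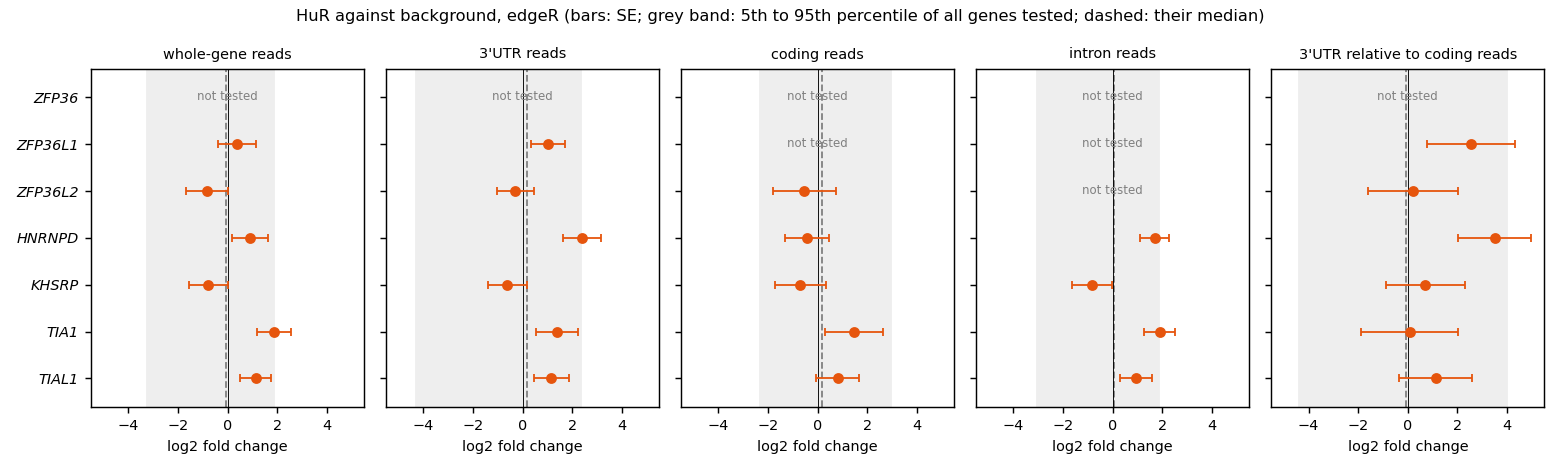
Log2 fold change of HuR over background (x axis) for each gene (y axis) in 5 edgeR comparisons, with SE as bars, the 5th to 95th percentile of all genes tested as a grey band and their median as a dashed line. HNRNPD in 3'UTR reads (2.38) lies just past the band and TIA1 in intron reads (1.88) at its edge, and no gene passed the test.

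As point values, the 3'UTR shares separated the groups in most of these genes, as they did in many other genes. Among the 6 genes with 5 or more 3'UTR and coding reads in each HuR and background library, both HuR libraries were above all 3 slices in 5 (ZFP36L1, HNRNPD, KHSRP, TIA1 and TIAL1), and over all genes in 53.1%. For the intron share of all reads, this held for 3 of 6 (HNRNPD, TIA1 and TIAL1), compared to 34.2% of all genes. For the 3'UTR share, the Wilson intervals of HuR and of the slices stayed apart only in HNRNPD and KHSRP. In ZFP36L1, G45 had 83.8% to 99.4% and HuR replicate 1 had 92.7% to 99.8%. In TIA1, G20 had 31.3% to 83.2% and HuR replicate 1 had 75.3% to 95.7%. In TIAL1, G45 had 70.6% to 93.7% and HuR replicate 1 had 93.2% to 98.5%. With 2 libraries against 3, an exact permutation test cannot give a p below 0.1, so none was run.

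**Figure D4:**
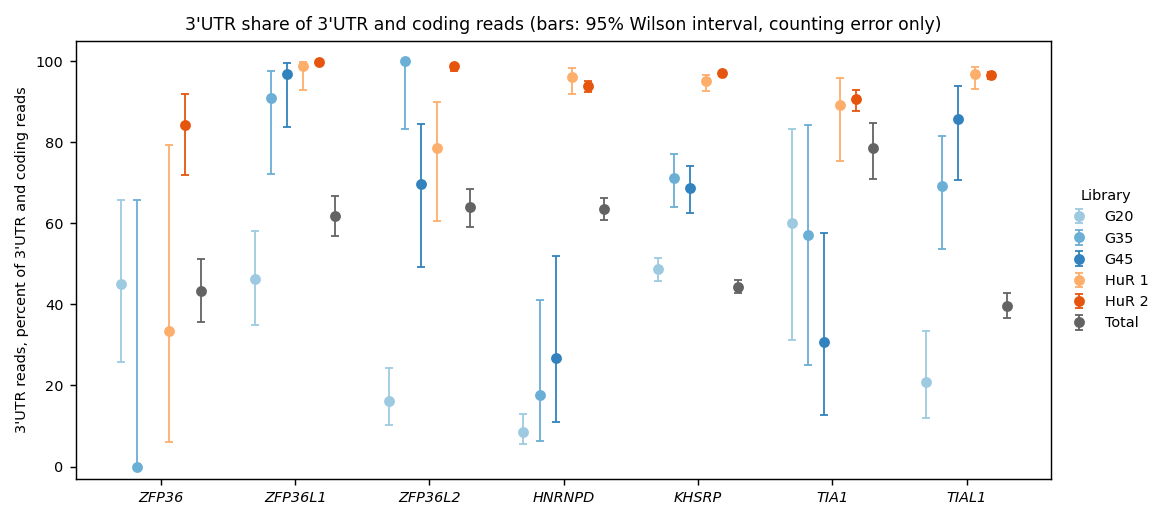
3'UTR reads as a percent of 3'UTR and coding reads (y axis) for each gene and library, with 95% Wilson intervals as bars. HuR points lie at 89% or above in HNRNPD, KHSRP, TIA1, TIAL1 and ZFP36L1, and HNRNPD shows the widest gap to the slices (8.58% to 26.7%).

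Conversion events, which mark crosslinks, were more frequent in both HuR libraries than in Total in each of the 7 3'UTRs, on a single read for ZFP36 in HuR replicate 1. In 3'UTR reads pooled over the 7 genes, HuR carried 99.8 and 100.9 events per 100 reads in replicates 1 and 2, compared to 27.2 in G20, 55.2 in G35, 42.3 in G45 and 23 in Total. All protein-coding genes together gave 82.1 and 101.9 in HuR and 19.7 in Total. KHSRP held 586 of the 680 pooled 3'UTR reads of G20. Its 3'UTR value was 100.6 and 98.9 in HuR, 26.8, 60 and 34.1 in the slices and 25.4 in Total. So the reads of HuR on the KHSRP 3'UTR differed from those of the slices in conversion, although both were many. In TIAL1 the slices came closest among the genes with enough reads, at 54.5, 59.3 and 73.3, below 105.5 and 100.5 in HuR. Both HuR libraries were above all slices in each of the 4 genes with 5 or more 3'UTR reads in every HuR and background library (ZFP36L1, ZFP36L2, KHSRP and TIAL1), and in 57.9% of all such genes.

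Intron reads were converted to a similar degree. Pooled over the 7 genes, they carried 99 and 104.2 events per 100 reads in HuR, 29.6, 62.4 and 46.8 in the slices and 28.9 in Total. Intron reads of all protein-coding genes together gave 64.6 and 97.2 in HuR, 8.84, 56.3 and 47.8 in the slices and 26.2 in Total. HNRNPD and TIAL1 had both HuR libraries above all slices, 2 of 4 genes with enough reads, against 39.3% of all genes. In TIA1, G35 had 115.4 events per 100 reads on 13 reads, and in KHSRP 100 on 12 reads, which overlapped HuR. In all 7 genes Total stayed at or below 31.7 events per 100 reads in introns and 30.3 in 3'UTRs.

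**Figure D5:**
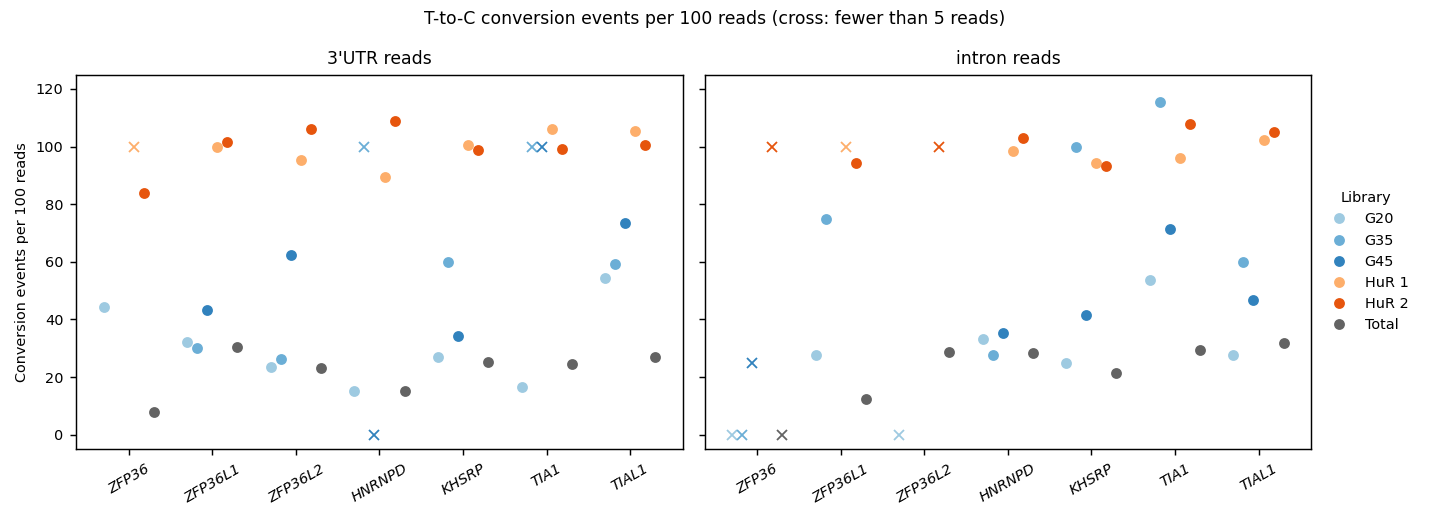
T-to-C conversion events per 100 reads (y axis) in 3'UTR (left) and intron reads (right) for each gene and library, with crosses where fewer than 5 reads were counted. HuR points gather near 100 and Total stays at or below 31.7, with the slices mostly between them.

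A site of HuR was counted as shared with background when it had 1 or more bp in common, on the same strand, with a site of any slice. Of all HuR sites in the 7 genes, 23.9% in replicate 1 (149 of 623) and 21.1% in replicate 2 (199 of 942) were shared, compared to 9.11% and 8.46% over all protein-coding genes. In the 3'UTR the shares were 35.7% (60 of 168) and 30.3% (69 of 228), compared to 21.5% and 19.6%. KHSRP contributed much of this, as 88.5% and 87.5% of its 3'UTR sites were shared. Without KHSRP, 26.1% and 23.5% of the 3'UTR sites and 18.8% and 17.1% of all sites were shared. At the other end stood TIA1, with 12% and 6.25% of its 3'UTR sites. Shared sites carried more reads than their number, holding 658 of 932 3'UTR reads in replicate 1 and 8980 of 12330 in replicate 2. Over all protein-coding genes they also did so, with 49.6% and 49.2% of 3'UTR reads. KHSRP alone held 465 of those 658 reads and 5736 of those 8980, so the values of the 7 genes rest largely on it. G20, the slice with the most sites, decided much of the overlap, and without it the mean over both HuR libraries fell from 22.5% to 11.8% of all sites of the 7 genes.

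Between the HuR replicates, 83.3% of the 168 3'UTR sites of replicate 1 met a site of replicate 2, and 53.1% of the 228 of replicate 2 met a site of replicate 1. In introns these shares were 68.2% of 374 and 42.6% of 591. All 26 KHSRP 3'UTR sites of replicate 1 were met in replicate 2, and in TIA1 48% of 25. Reads differed unevenly between the shallower and the deeper library: replicate 2 had 31 times the reads of replicate 1 in ZFP36L1, 24.5 times in ZFP36L2, 18.7 times in ZFP36, and 7.48 (HNRNPD) to 11.9 (TIA1) times in the other 4, compared to a median of 6.86 over all genes with 20 or more reads in replicate 1, of which the 5th to 95th percentile was 0.507 to 13.7. The ZFP36 family was above that range, on 3 (ZFP36) to 91 (ZFP36L1) reads in replicate 1, and the cause was not tested.

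Sequence elements were searched on the site's own strand. ATTTA was found in 9.52% and 14.5% of the 3'UTR sites of these genes in HuR replicates 1 and 2, compared to 8.29% and 9.93% of all 3'UTR sites of protein-coding genes. In Total it was in 10.2% of the sites of these genes and in 7.03% of all 3'UTR sites. TTTTT was in 22% and 30.3%, compared to 15.7% and 21.6% of all 3'UTR sites and 21.5% of the sites of these genes in Total. The sites had a median length of 25 and 28 bases in these genes and of 24 and 25 in all genes, and longer sites can hold more elements. Background sites of these genes had ATTTA in 5.36% (G20), 6.9% (G35) and 5.71% (G45), below both HuR libraries, and TTTTT in 28.6%, 17.2% and 22.9%, which overlapped HuR. Weighted by reads, the order for ATTTA was lost. Sites with ATTTA held 5.15% and 13.1% of the HuR reads of these genes, below the 8.08% and 17.9% of all genes, and HuR replicate 1 fell below G35 (5.91%). KHSRP held 472 of the 932 and 5797 of the 12330 HuR 3'UTR reads, with 0% and 0.138% of its reads at such sites. The other genes ranged from 0% (ZFP36 and TIA1) to 27.4% (ZFP36L1) in replicate 1. In replicate 2 they ranged from 7.12% (HNRNPD) to 86% (ZFP36). The low pooled values of ATTTA thus rest largely on KHSRP. Sites with TTTTT held 34.3% and 62.3%, compared to 18.1% and 47% of all genes and 8.68% (G20), 25.6% (G35) and 54.4% (G45) in the slices. In replicate 2 the value for TTTTT differed widely between genes. It was 94.2% in KHSRP, 62.4% in TIA1 and 55.3% in ZFP36L2. TIAL1 (33.3%), ZFP36L1 (28%), HNRNPD (26.9%) and ZFP36 (2.33%) lay below the 47% of all genes. The pooled excess over all genes in that library thus rests largely on KHSRP and its 5797 reads. The slices rest on 56, 29 and 35 sites.

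Seen from the 3'UTR, HuR replicate 2 lay on most pentamers. The canonical 3'UTRs held 13 ATTTA in TIA1, 8 in ZFP36L1, 5 in ZFP36, ZFP36L2 and TIAL1, 2 in HNRNPD and 1 in KHSRP. Sites of HuR replicate 2 fully covered 7 of 8 in ZFP36L1, 5 of 5 in ZFP36L2 and TIAL1, 2 of 2 in HNRNPD, 1 of 1 in KHSRP, 6 of 13 in TIA1 and 1 of 5 in ZFP36. HuR replicate 1, with fewer reads, covered 4, 2, 3, 1, 0, 0 and 0 of them in the order ZFP36L1, ZFP36L2, TIAL1, HNRNPD, KHSRP, TIA1 and ZFP36. Sites of any slice covered 1 in ZFP36L1, TIA1 and TIAL1 each, 2 in ZFP36L2 and 0 in the others. Total, which is not an immunoprecipitate, covered 4 in ZFP36L1, 4 in ZFP36L2, 2 in TIAL1, 1 in TIA1 and 0 in the others, more than HuR replicate 1 in ZFP36L2 and TIA1. These counts follow how much of a 3'UTR a library covers, which was 54.2% for HuR replicate 2 in ZFP36L1, 44.1% in ZFP36L2, 25.1% in TIA1 and 15% in ZFP36. ZFP36 and TIA1 were thus the genes in which most pentamers had no HuR site.

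Other genes of the pathway gave no call in the 3'UTR. Of 16 further AU-rich element binding protein genes, 13 were tested in 3'UTR reads and 0 passed in either direction in edgeR, with a median log2 fold change of 0.69. The lowest p were those of FUBP1 (1.99 ± 0.59), ELAVL1, which encodes HuR itself (1.38 ± 0.56), RC3H1 (1.49 ± 0.64) and FUBP3 (1.16 ± 0.62). In intron reads, 13 were tested, of which 0 passed as higher and 2 as lower, against 0.186% and 3.35% of all genes. Of 30 genes of deadenylation, decapping and the exosome, 15 were tested in 3'UTR reads and 0 passed, with a median of 0.74. CNOT6, a deadenylase (1.7 ± 0.57), the decapping enzyme DCP2 (1.18 ± 0.57), PAN3 (1.22 ± 0.7) and the exonuclease XRN1 (1.32 ± 0.84) had the lowest p. In intron reads, 26 of them were tested, with 0 higher and 1 lower, beside the same shares of all genes. ELAVL1 reads come from cells that carry a HuR construct, whose transcript may contribute to them.

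Over 18 values, the coding, 3'UTR and intron reads of the 6 libraries, scaled to reads in protein-coding genes and on a log2 scale, the gene most alike to each was sought among 12960 others. Pearson's r was 0.989 for TIAL1 with NSD3, 0.979 for TIA1 with MIGA1, 0.97 for KHSRP with TUBB, 0.965 for HNRNPD with ACBD3, 0.951 for ZFP36L1 with ENSG00000267303, 0.933 for ZFP36L2 with MARCKSL1 and 0.915 for ZFP36 with TRAPPC2L. The 18 values share libraries and depth, and these correlations are given as a description.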

How the data were processed

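The 6 PAR-CLIP libraries came from HEK293 cells: 3 background slices, 2 HuR replicates and 1 Total. The authors mapped single reads with Bowtie to hg19 and passed uniquely mapping reads with few T-to-C mismatches to PARalyzer. The deposited values are raw counts per site, namely reads, T-to-C positions and T-to-C events, without normalization by the authors. Groups, sites with any read, were used, with clusters as an alternative. Removal of PCR duplicates is not given in the sources used here.

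Sites were assigned by midpoint and strand to protein-coding genes of GENCODE release 44 mapped to GRCh37, with coding sequence before 3'UTR, 5'UTR, noncoding exon and intron. All 2809 site sequences matched GRCh37. Reads were summed per gene and region. edgeR 4.0.16 (R 4.3.3) compared HuR with background over all genes after filterByExpr, with TMM factors, at an adjusted p of 0.05. A run on simulated counts used the same fixed spread for every gene and library. It therefore does not show how the test performs on these slices and replicates. DESeq2 1.42.0, other scalings, filters, regions, site kinds and leaving out each library were alternatives, whose effect is given in the closing section. Python 3.11.15, numpy 2.4.6, pandas 2.3.3, scipy 1.17.1 and matplotlib 3.10.9 were used. Depth ranged from 6187300 (G35) to 38644636 (G20) reads, which sets the precision of each value.

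All 7 genes are named in every comparison. For sites, the rule names per gene the 3'UTR and the intron site with the highest mean HuR reads and the site with the most background reads. Some second-ranked sites, the nonamers and the comparison of shares between groups were chosen after values were seen. The genes and lists were chosen with earlier results of these data known.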

Additional observations from a re-analysis of the deposited data

How the results depend on the processing

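Under edgeR's main setting no gene of the 7 was called in any of the 5 comparisons, and this held under every alternative except 2. Scaled to the library's total over all sites, 3 genes were called in whole-gene, 4 in 3'UTR and 3 in intron reads and 1 in 3'UTR relative to coding reads, and DESeq2's Wald test called 2 in intron reads. Among 308 alternative values of the single genes' log2 fold changes, 273 kept direction and side of the threshold, 13 became called and 22 reversed. The reversed ones had main values between -0.84 and 1.12. Scaled to the total, ZFP36L2 moved to 1.88 (whole gene) and 2.67 (3'UTR), and KHSRP to 1.95, 2.58 (3'UTR) and 2.36 (intron). Without the filter, 3'UTR values were 0.28 for ZFP36L2 and 0.00068 for KHSRP, and with clusters ZFP36L2 had 0.016 in whole-gene reads. With DESeq2's size factors, 3'UTR relative to coding was -0.052 for ZFP36L2 and -0.18 for TIA1. When each library was left out in turn, whole-gene values ranged from -1.38 (without HuR replicate 2) to 1.29 for ZFP36L1 and from -2.31 to 0.0049 for ZFP36L2, 3'UTR values from -1.07 to 0.85 for ZFP36L2 and from -0.94 to 0.18 for KHSRP, coding values from -1.51 to 0.201 for ZFP36L2 and from -1.21 to 0.49 for HNRNPD, and 3'UTR relative to coding from -1.59 to 1.83 for ZFP36L2, from -0.74 to 0.56 for TIA1 and from -0.0102 to 1.89 for TIAL1. The cause of these changes was not tested.

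The mean 3'UTR share of HuR reads, 55.3%, became 67.8% with sites of 5 or more reads, 70.1% with clusters and 25.6% with sites counted once, and the intron share, 38.3%, became 28%, 26.9% and 61.4%, or 46.3% with the canonical transcript. The 3'UTR share of 3'UTR and coding reads, 96%, became 98.7%, 98.9% and 82.4%. The overlap with background, 22.5% of HuR sites, was 35.2% for sites of 5 or more reads and 51.5% by reads, and 11.8% to 23.9% when a library was left out. TTTTT was in 26.1% of 3'UTR sites and in 48.3% weighted by reads. The other alternatives for overlap, conversion events and motifs moved by less than the spread of the HuR replicates.

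No paired analysis was possible because the slices are numbered only by gel position and no label ties them to a HuR replicate. Depth limits ZFP36, which passed no filter, and all values resting on the few reads of G35 and G45.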
